A study of Mus musculus with 11 samples.

Results

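Plat, Plau, Plaur and Serpine2, 4 genes of the plasminogen activator system, were followed across hepatic mesenchymal cells from uninjured and fibrotic mouse liver. The 4 genes were found by symbol among the 27998 genes of the droplet (10x) tables and among the 23997 gene symbols of the plate (Smart-seq2) tables. They were selected on measured values, since Plat had been seen to be higher in injured than in uninjured cells of these same data. Their levels in injured against uninjured cells are therefore a description and carry no p-value. Comparisons of the 2 injuries with each other, and of fibroblast-like with smooth-muscle-like wells, were not themselves used in that selection and were tested. The comparison of injuries rests on the difference of each from uninjured wells, so it is not fully separate from the selection.

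All cells came from livers of male Pdgfrb-BAC-eGFP mice on a C57BL/6 background, aged 10 to 16 weeks, in which GFP is driven by Pdgfrb regulatory sequence, and were sorted as GFP+ CD45- CD102-. The 5 droplet libraries each pooled 3 mice. Of the 3 prepared by the HSC isolation (retrograde digestion and a density gradient), 1 was uninjured, 1 was taken 72 h after a single dose of carbon tetrachloride (CCl4) and 1 after 6 weeks of repeated CCl4. The 2 libraries of the PF isolation (perfused, minced and digested liver) were uninjured and 6 weeks of CCl4. On the 6 plates, wells came from uninjured mice, from mice 14 days after bile duct ligation (BDL) or from mice given CCl4 for 6 weeks. By the labels, plates 1 to 5 held the PF isolation alone. Plate 6 held uninjured mice, 1 of the PF isolation and 2 of the HSC isolation. The wells of 1 mouse label on 1 plate are called a portion, and there were 17 portions.

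Plasminogen is a circulating zymogen that tissue-type plasminogen activator, encoded by Plat, and urokinase, encoded by Plau, cleave to the active protease plasmin. Plaur encodes the cell-surface receptor that holds urokinase at the membrane. Serpine2 encodes protease nexin-1, a secreted serpin that inhibits thrombin and both activators. Plasmin degrades fibrin and several matrix proteins and activates matrix metalloproteinases, which is why the system is studied in liver fibrosis, where activated hepatic stellate cells (HSC) lay down collagen.

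In GRCm38, Plat lies on the + strand of chromosome 8 from 22757727 to 22782844, Plau on the + strand of chromosome 14 from 20836660 to 20843385 and Plaur on the + strand of chromosome 7 from 24462484 to 24475968. Serpine2 lies on the - strand of chromosome 1 from 79794197 to 79861180. RefSeq promoter sequences (GRCm38.p6, 250 bases before to 50 bases after the start) matched 2 of the 4 genes. Each was searched on both strands for the AP-1 motif TGACTCA, the site bound by Fos and Jun proteins, and for the GC box GGGCGG. The Plaur promoter (chr7:24462233-24462532, + strand) is shown because the Fos and Jun genes are followed beside Plaur below, with the single AP-1 match, 69 bases before the start, in capitals. The Serpine2 promoter (chr1:79858616-79858915, - strand, inside the annotated gene) is shown with its 6 GC boxes, some of them overlapping, in capitals.
Plaur: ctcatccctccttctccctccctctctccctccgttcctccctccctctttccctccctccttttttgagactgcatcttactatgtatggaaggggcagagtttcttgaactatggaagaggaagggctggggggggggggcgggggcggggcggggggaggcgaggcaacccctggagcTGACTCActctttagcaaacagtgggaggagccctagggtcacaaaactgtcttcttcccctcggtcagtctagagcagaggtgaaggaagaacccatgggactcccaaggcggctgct
Serpine2: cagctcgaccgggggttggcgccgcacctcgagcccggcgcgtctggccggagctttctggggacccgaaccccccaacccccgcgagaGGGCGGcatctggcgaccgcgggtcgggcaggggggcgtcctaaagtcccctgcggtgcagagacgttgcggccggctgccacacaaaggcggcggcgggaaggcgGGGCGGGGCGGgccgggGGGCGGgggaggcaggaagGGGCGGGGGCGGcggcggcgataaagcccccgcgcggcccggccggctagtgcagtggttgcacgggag
An AP-1 match was held by 5.20% of all 32851 promoters of this length and a GC box by 35.7%. Plaur also held 3 GC boxes, and Serpine2 held no AP-1 match. The matches are a description of these letters and no measurement of binding.

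After filtering, the droplet libraries held 5454 to 7310 cells, with median counts of 4299 to 11343.5 unique molecular identifiers (UMIs) per cell, and 183 to 244 barcodes of each library also occurred in another. Cells and wells were clustered with the members, their system list and the immediate early genes left out, and clusters were called HSC-like, FB-like (fibroblast) or VSMC-like (vascular smooth muscle) from marker genes. HSC-like cells of different libraries lay in different clusters, mainly clusters 3, 6 and 11 in the uninjured library, clusters 2, 8 and 9 at 72 h and clusters 4, 13 and 14 at 6 weeks. Clusters 10 and 12 of the HSC isolation expressed all 7 HSC markers but had the endothelial marker Clec4g among their top 10 genes and were left unnamed. The 7 HSC markers in HSC-like cells summed to 27434 counts per 1000000 UMIs (CPM) in the uninjured library. The sum was 4839 CPM at 72 h and 14163 CPM at 6 weeks. All 5 mesothelial markers, Krt19 among them, were at 0 in these cells. In the same order of libraries, hepatocyte markers summed to 47.5, 10.8 and 32.2 CPM. Endothelial markers summed to 48.5, 16.1 and 39.6 CPM, mostly Clec4g, and cholangiocyte markers to 0.756, 3.86 and 5.07 CPM. Leucocyte markers summed to 2.31 CPM uninjured and 8.82 CPM at 6 weeks, and were highest at 72 h, mostly Lyz2 (13.6 CPM). The 7 FB markers, all detected in each library, summed to 26.8 CPM in the uninjured, 319 CPM in the 72-h and 594 CPM in the 6-week HSC-like cells, mostly Gpx3 (13.6, 177 and 368 CPM). The 6 VSMC markers summed to 515, 2076 and 623 CPM, with Pln and Cnn1 at 0 in the uninjured and 6-week libraries. With 1 library per condition the droplet data allow no test between conditions, and their intervals (95%, exact Poisson for CPM and exact binomial for shares) cover counting error only.

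Plat was scarce in HSC-like cells of uninjured liver and abundant in those of injured liver. It stood at 3.41 CPM in the uninjured library (2.89 to 4.01, 149 UMIs), at 64.6 CPM at 72 h (62.7 to 66.4, 4745 UMIs) and at 74.3 CPM at 6 weeks (71.8 to 76.9, 3225 UMIs). The level was 18.9-fold higher at 72 h than in the uninjured library (16.1 to 22.4) and 21.8-fold higher at 6 weeks (18.5 to 25.8), while 6 weeks exceeded 72 h 1.15-fold. In cells thinned to 2000 UMIs, which removes the difference in depth, a Plat UMI was found in 0.459% of uninjured HSC-like cells, in 10.7% at 72 h and in 12.2% at 6 weeks, against 1.91%, 42.1% and 33.4% before thinning. The unnamed clusters did not follow this course, with 20.1 CPM in the uninjured library, 16.8 at 72 h and 15.6 at 6 weeks. They were unlike in make-up, however. Cluster 12 gave 404, 18 and 771 of these cells in the 3 libraries, and cluster 10 gave 17, 1190 and 118. Cluster 12 alone had Plat at 14.0 CPM (36 UMIs) in the uninjured library and 13.7 CPM at 6 weeks. Ngfr, the study's marker of portal HSC, was 700 CPM in uninjured cells of cluster 12 and 238 to 292 CPM in those of clusters 3, 6 and 11. At 72 h it was 317 CPM in cluster 10 and 74.0 to 149 CPM in clusters 2, 8 and 9. With clusters 10 and 12 counted as HSC-like, an alternative chosen after seeing the data, the Plat folds were 13.1 and 14.7. The FB marker sum of HSC-like cells, given above, was higher in the same libraries as Plat, and its part in the levels of Plat and Serpine2 was not tested.

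Serpine2 was also higher in both injured libraries. Its level in HSC-like cells was 16.3 CPM in the uninjured library (15.1 to 17.6, 712 UMIs), 103 CPM at 72 h (100 to 105, 7541 UMIs) and 91.1 CPM at 6 weeks (88.3 to 94.0, 3954 UMIs). These were 6.29-fold (5.83 to 6.80) and 5.59-fold above the uninjured library. The thinned share of cells with a UMI was 2.82% in the uninjured library, 15.7% at 72 h and 13.4% at 6 weeks. In the unnamed clusters Serpine2 was 20.1, 19.2 and 21.5 CPM. Plat and Serpine2 were the only members to reach 20 CPM in HSC-like cells, the level required for a call, and both were at least 2-fold higher at both times. In all, 7.23% of the 6249 genes at that level were at least 2-fold higher at 72 h and 10.9% at least 2-fold lower, and 3.34% and 1.96% of 6009 genes at 6 weeks, but the members were selected on this contrast and nothing is read from their count. The median gene shifted by -0.22 (log2) at 72 h and by -0.24 at 6 weeks.

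**Figure D1:**
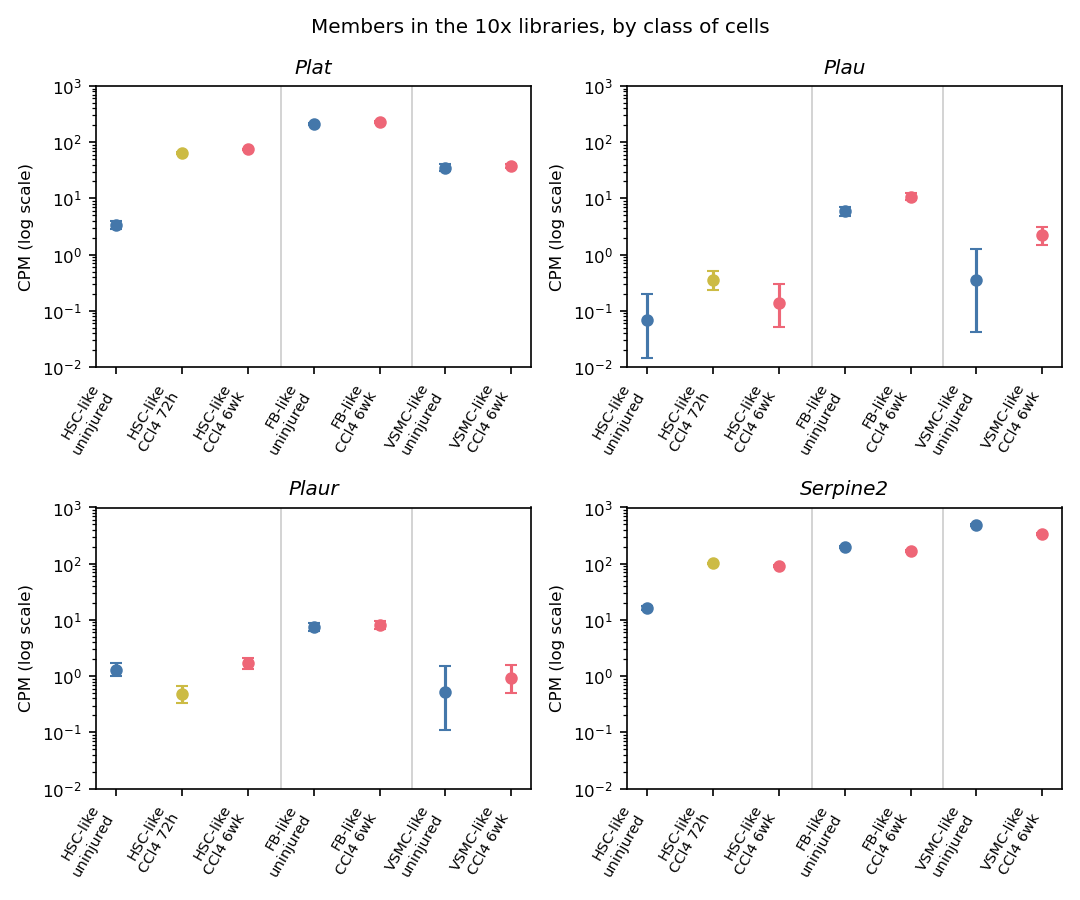
Level of each member (CPM, log scale) in HSC-like cells of the HSC isolation and in FB-like and VSMC-like cells of the PF isolation, 1 point per library with its exact Poisson 95% interval. Plat and Serpine2 in HSC-like cells lie far above the uninjured library at both times after CCl4, while Plau and Plaur lie below 3 CPM in every HSC-like and VSMC-like group.

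Along the lobule axis the injured libraries differed in shape from the uninjured one. Each cell of the HSC isolation was given a zonation score from 52 portal and 29 central genes that the study had chosen on HSC of these data, and the cells of each library were divided into 5 bins of equal size, from bin 1, the most central, to bin 5, the most portal. In the uninjured library Plat was 2.18 CPM in the most central bin, 2.51, 4.62 and 5.46 CPM in the next and 7.07 CPM in the most portal. At 72 h it was 57.3, 67.6, 66.3 and 71.2 CPM in bins 1 to 4 and 16.7 CPM in bin 5. At 6 weeks it was 106, 107, 68.8, 24.8 and 14.1 CPM in bins 1 to 5. The low end of Plat in uninjured liver was thus the high end after 6 weeks of CCl4, and the fold over the uninjured library went from 48.6 in the most central bin to 1.99 in the most portal.

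Serpine2 was likewise lowest in the most portal bin after injury. Its level by bin was 22.9, 20.2, 14.8, 10.7 and 14.8 CPM in the uninjured library. At 72 h it was 109, 114, 108, 85.8 and 22.5 CPM, and at 6 weeks 119, 124, 88.8, 45.3 and 17.5 CPM. In the most portal bin the fold over the uninjured library was 1.52 at 72 h and 1.18 at 6 weeks. The unnamed clusters made up 29.3% of the most portal bin in the uninjured library, 54.9% at 72 h and 67.7% at 6 weeks. Among HSC-like cells alone, the most portal bin held Plat at 4.60, 22.0 and 13.9 CPM and the most central at 2.18, 57.5 and 106 CPM, so the order of the ends was as before in each library. Serpine2 in the most portal bin of HSC-like cells alone was 13.7 CPM uninjured, 32.1 CPM at 72 h and 19.0 CPM at 6 weeks, a wider gap at 72 h than with the unnamed clusters included.

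**Figure D2:**
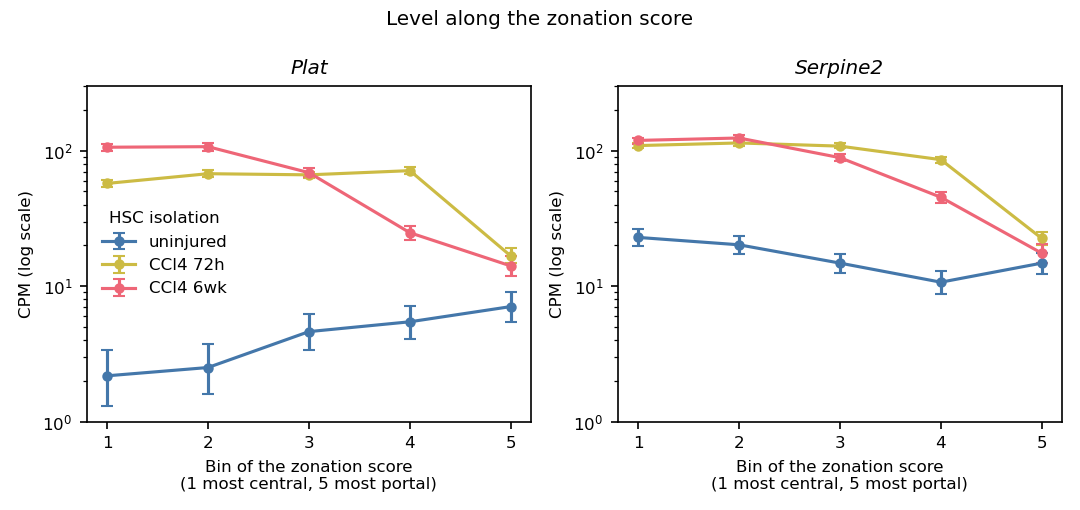
Level of Plat and Serpine2 (CPM, log scale, exact Poisson 95% intervals) in bins of the zonation score, computed within each library of the HSC isolation. After CCl4 the most portal bin lies at 14.1 to 22.5 CPM for both genes, and the most central bins lie at 57.3 to 119 CPM, far above their uninjured level.

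Among the clusters of the HSC isolation, the highest levels of both genes were in cluster 13, which held 871 cells of the 6-week library and was led by Spidr, Alcam and Fam180a. Plat stood at 174 CPM there and Serpine2 at 242 CPM, against 55.0 and 57.5 CPM in cluster 4, the main cluster of the same library. Cluster 2, led at 72 h by Saa3, Cthrc1 and Ltbp2, had Plat at 71.3 CPM and Serpine2 at 119 CPM. Cluster 12 was shared by libraries and showed no difference, with Plat at 14.0 CPM in its 404 uninjured cells and 13.7 CPM in its 771 cells at 6 weeks. Serpine2 was 17.5 and 17.4 CPM there. In clusters 3 and 6, the main uninjured ones, Plat was 2.33 and 2.43 CPM in uninjured cells and 10.2 and 12.8 CPM in the 97 and 93 cells of the 6-week library that lay there. Each of those 6-week values rests on only 6 UMIs. Serpine2 was 15.5 and 15.2 CPM in the uninjured cells of clusters 3 and 6 and 8.53 and 25.5 CPM at 6 weeks. Clusters 4 and 14 held 102 and 69 uninjured cells, with Plat at 9.93 and 13.9 CPM from 8 and 7 UMIs. Their 6-week cells had 55.0 and 53.5 CPM. Serpine2 in clusters 4 and 14 was 33.5 and 49.6 CPM uninjured and 57.5 and 52.5 CPM at 6 weeks.

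Both genes were higher in cells rich in collagen transcripts. With HSC-like cells of each library divided by the level of Col1a1, Col1a2 and Col3a1, Plat was 76.7 CPM in the collagen-high and 38.0 CPM in the collagen-low cells at 72 h, and 111 and 37.6 CPM at 6 weeks. In the uninjured library the values were 4.75 and 2.45 CPM. Serpine2 was 122 and 59.3 CPM at 72 h and 143 and 39.5 CPM at 6 weeks, but 17.4 and 15.5 CPM in the uninjured library. Of these cells, 589 to 707 per library lay near the dividing line. Dividing cells were common at 72 h, when 822 HSC-like cells scored high for Mki67 and 4 other cell-cycle genes. Plat was 59.0 CPM in them and 65.8 CPM in the other cells, and Serpine2 was 72.5 and 110 CPM.

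Co-detection of the 2 genes in single cells was read at equal depth. At 6 weeks a Serpine2 UMI was found in 26.9% of HSC-like cells with a Plat UMI (23.3 to 30.8) and in 11.5% of those without (10.5 to 12.5). The same shares were 17.8% and 15.5% at 72 h, where their intervals overlapped, and 24.5% and 25.6% in uninjured FB-like cells. The difference between libraries was not tested.

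**Figure D3:**
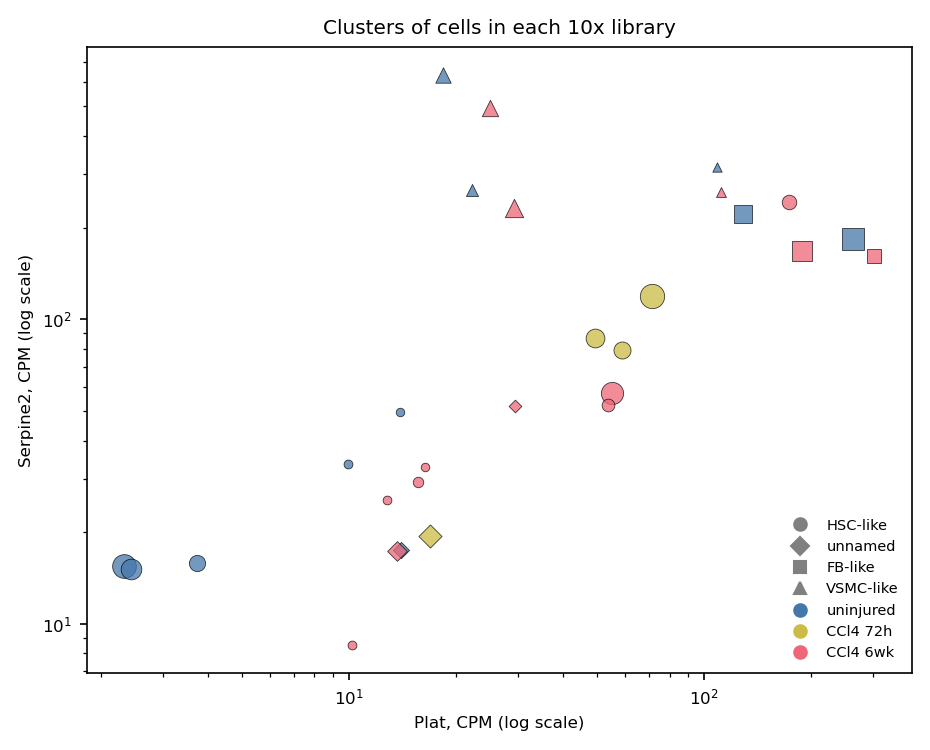
Plat against Serpine2 (CPM, both axes log) in each cluster of cells of each droplet library with enough cells, with symbol by class, colour by condition and size by number of cells. The large uninjured HSC-like clusters sit at 2.33 to 3.74 CPM of Plat, cluster 13 of the 6-week library sits among the FB-like clusters, and the VSMC-like clusters have Serpine2 at 232 to 632 CPM, with Plat at 18.4 to 29.2 CPM outside cluster 15.

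In the PF isolation the levels of both genes were high without injury. FB-like cells held Plat at 210 CPM in the uninjured library (204 to 217) and 228 CPM after 6 weeks of CCl4 (220 to 235), 1.08-fold. VSMC-like cells held it at 35.1 CPM (30.4 to 40.3) and 37.8 CPM (34.6 to 41.1). Without probable doublets and cells carrying 3 markers of another type, the VSMC-like fold was 1.47. Within FB-like cluster 1, led by Thbs4, Angptl1 and Pi16, Plat was 263 CPM uninjured and 302 CPM after CCl4, and within cluster 0, led by Ptn and Sfrp1, 129 and 189 CPM. Cluster 1 held 2352 FB-like cells in the uninjured library and 901 after CCl4. Among VSMC-like cells, the small cluster 15, with Npnt among its leading genes, had Plat at 109 and 112 CPM. In cluster 5 Plat was 18.4 CPM uninjured and 24.9 CPM after CCl4, and in cluster 7 it was 22.2 and 29.2 CPM.

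Serpine2 was highest in VSMC-like cells and lower in both classes after CCl4. It was 485 CPM in uninjured VSMC-like cells (467 to 504) and 335 CPM after CCl4 (325 to 345), 0.690-fold, and 198 and 166 CPM in FB-like cells, 0.837-fold. The mix of VSMC-like clusters differed between the libraries, with 1022 and 1196 cells in cluster 5 and 492 and 1588 in cluster 7. Within clusters the gaps were smaller, from 632 to 496 CPM in cluster 5, from 265 to 232 CPM in cluster 7 and from 317 to 262 CPM in cluster 15. At this level, 1.36% of 6011 genes in FB-like cells were at least 2-fold higher and 0.366% lower, and 2.23% of 5883 genes in VSMC-like cells were higher and 0.357% lower. No member passed 2-fold among those at 20 CPM in either class. The 4 members did not share an order over classes, with Plat highest in FB-like and Serpine2 in VSMC-like cells.

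Plau and Plaur were low in every class and highest in FB-like cells. HSC-like cells were read in another isolation than FB-like and VSMC-like cells, so against them class and isolation cannot be told apart. Plau was counted 3, 26 and 6 times in all HSC-like cells of the uninjured, 72-h and 6-week libraries, 0.0687, 0.354 and 0.138 CPM. The 72-h level was 5.15 times the uninjured one, with an interval of 1.58 to 26.6 that rests on the 3 uninjured counts. In FB-like cells it was 5.94 CPM uninjured (4.93 to 7.11, 120 UMIs) and 10.8 CPM after CCl4 (9.29 to 12.5, 183 UMIs), 1.82-fold. In VSMC-like cells of the same libraries it was 0.348 CPM (2 UMIs) and 2.20 CPM (31 UMIs), with 15 of those 31 in cluster 15. A Plau UMI was found in 2.68% of uninjured FB-like cells at a median of 4893 UMIs and in 0.120% of VSMC-like cells at 3213.5 UMIs. Within FB-like cluster 0 Plau was 1.51 CPM uninjured and 8.60 CPM after CCl4, and within cluster 1 it was counted 108 times in 2352 cells and 87 times in 901 cells.

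Plaur, the urokinase receptor, was 7.43 CPM in uninjured FB-like cells (6.29 to 8.72) and 8.26 CPM after CCl4 (6.95 to 9.74), and its intervals overlapped. In HSC-like cells it was 1.31 CPM in the uninjured library (0.989 to 1.69), 0.476 CPM at 72 h (0.332 to 0.662) and 1.70 CPM at 6 weeks (1.34 to 2.14). The summed level of 9 immediate early genes, Fos and Jun among them, was also lowest at 72 h, at 5866 CPM against 11637 CPM uninjured and 10457 CPM at 6 weeks. These genes are induced while tissue is digested as well as in life, and their part in the Plaur difference was not tested. Among uninjured clusters the highest Plaur was in the small cluster 14, at 11.9 CPM from 6 UMIs, which also had 17173 CPM of the immediate early genes. Cluster 11, with the highest sum of those genes among uninjured clusters at 22262 CPM, had Plaur at 1.54 CPM from 14 UMIs.

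A list of 16 further genes of the system was read in the same way. Of the 8 list genes at 20 CPM in HSC-like cells at 72 h, Mrc2, the collagen receptor that also binds the urokinase receptor, was 3.19-fold higher (43.6 against 13.7 CPM). Vtn, vitronectin, a matrix protein that also binds the urokinase receptor, was lower, at 1.88 against 22.1 CPM. The hepatocyte marker sum of these cells was also lower at 72 h, at 10.8 against 47.5 CPM. Its part in the Vtn level was not tested. At 6 weeks Mrc2 was 2.54-fold higher and no list gene passed 2-fold downwards. The median list gene differed by 0.13 (log2) at 72 h and -0.19 at 6 weeks, beside medians over all genes of -0.22 and -0.24. Between 6 weeks and 72 h, none of 7 list genes passed 2-fold, where 5.52% of 5838 genes were higher at 6 weeks and 4.52% lower.

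Tfpi2, a Kunitz-type inhibitor of plasmin, was 3.18, 14.3 and 5.76 CPM in the 3 HSC-like groups, all below the level required for a call. After filtering of genes, Serpinb2, or PAI-2, had no UMI in uninjured or 72-h HSC-like cells and 125 UMIs, 2.88 CPM, at 6 weeks. It had no UMI in FB-like or VSMC-like cells of either library of the PF isolation. In the PF isolation, Serpini1, neuroserpin, an inhibitor of tissue-type activator, was 2.55-fold higher after CCl4 in VSMC-like cells, at 315 against 124 CPM. It was the only one of 9 list genes past 2-fold there, and none of 9 passed in FB-like cells. The median list gene differed by -0.05 in FB-like cells and -0.15 in VSMC-like ones, beside -0.02 and 0.04 over all genes. Plg, the zymogen itself, had 0 to 13 UMIs in each class.

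On the plates, portions were compared as sums of reads per class, in reads per 1000000 (RPM). After filtering, 2065 wells remained. FB-like and VSMC-like wells were found in uninjured, BDL and CCl4 portions, and 312 HSC-like wells only on plate 6, which held uninjured mice alone. That plate was also the only one with the HSC isolation, so there were no injured HSC-like wells to compare. HSC-like wells came from the HSC isolation alone and FB-like and VSMC-like wells from the PF isolation. Between HSC-like and other wells, class and isolation therefore cannot be told apart. It is not stated whether any mouse contributed to several plates, so the p-values below measure the spread between portions. Classes were called on the same wells from genes other than the members.

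Plat was high in FB-like wells of every condition. In the 6 uninjured portions it ranged from 332 through a median of 600 to 1061 RPM. The 5 BDL portions held 533 and 399 RPM on plate 1, 433 and 619 RPM on plate 2 and 315 RPM on plate 4. The 4 CCl4 portions held 746 and 711 RPM on plate 3 and 928 and 266 RPM on plate 5. The 3 groups overlapped, though all 5 BDL portions were below the uninjured portion of their own plate, by a median of -0.59 (log2 of RPM + 1, from -0.93 to -0.13). Injured portions of the same plate share 1 uninjured portion, so these differences are not independent of each other.

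VSMC-like wells differed from this. In the 6 uninjured portions Plat ranged from 20.4 through 40.0 to 88.8 RPM. The 5 BDL portions held 372 and 1111 RPM on plate 1, 248 and 978 RPM on plate 2 and 305 RPM on plate 4, so that the lowest of them was above the highest uninjured portion. The 4 CCl4 portions held 92.4 and 71.6 RPM on plate 3 and 87.8 and 172 RPM on plate 5, which overlapped the uninjured range. Within plates, 5 of 5 BDL portions were higher than their uninjured portion, by a median of 2.70 (1.77 to 4.67), and 4 of 4 CCl4 portions by a median of 1.88 (1.03 to 2.12). These counts are not independent. The BDL portions share the uninjured portions of plates 1, 2 and 4, and the CCl4 portions those of plates 3 and 5 alone. The fitted log2 difference from uninjured was 3.29 ± 0.62 (SE) for BDL and 1.83 ± 0.65 for CCl4 in VSMC-like wells, and -0.53 ± 0.35 and -0.18 ± 0.42 in FB-like wells. Without the plate term the CCl4 difference in VSMC-like wells was 1.09. The droplet VSMC-like cells, also after 6 weeks of CCl4, differed from uninjured by 0.11 (log2) in Plat, or 1.08-fold. That fold was 1.47 without probable doublets and cells carrying 3 markers of another type, and 1.32 as a mean over cells. The disagreement between the methods was not tested.

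The share of VSMC-like wells with a Plat read was 17.6% to 38.4% over uninjured portions, 51.9% to 88.5% over BDL portions and 35.6% to 56.5% over CCl4 portions. The difference was seen in 3 of the 4 VSMC-like clusters, most in cluster 4, with Tfap2a among its leading genes, at 59.0 RPM uninjured and 1004 RPM after BDL, and in cluster 0, led by Rergl and Scn4b, at 43.3 and 691 RPM. It was less in cluster 1, at 62.4 and 158 RPM, and Plat stayed low in cluster 9, at 7.55 and 15.3 RPM. The 7 fibroblast markers summed to 37.2 to 357 RPM in BDL VSMC-like portions and 36.7 to 197 RPM in uninjured ones, against at least 3148 RPM in FB-like portions.

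In FB-like wells the mix of clusters moved with BDL. Cluster 8, led by Notum, Iyd and Tnfrsf19, held 77 uninjured wells at 1149 RPM of Plat and 35 CCl4 wells at 1361 RPM, but 1 BDL well. In cluster 3, led by Col11a1, Comp and C1qtnf3, Plat was 236 RPM uninjured and 457 RPM after BDL, and in cluster 7 1014 and 515 RPM. In a finer clustering (Leiden resolution 1.2), an FB-like cluster led by Col11a1 and Comp held 12 uninjured and 125 BDL wells. Another, led by Gria1, also a leading gene of cluster 3, held 84 and 9. The part of this mix of wells in the cluster 3 values was not tested. Of the plates with BDL wells, plate 1 held 76 wells of cluster 7, plate 2 held 4 and plate 4 held 11. The BDL value of cluster 7 thus rests mostly on plate 1. The cholangiocyte markers summed to 56.9 to 2053 RPM in BDL FB-like portions, against 10.2 to 25.3 RPM in uninjured ones. Spp1 was the highest of them in every BDL portion, and up to 3 of the 5 markers were at 0. The part of these markers in the levels of the members was not tested.

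Serpine2 overlapped between conditions in both named classes. Beside the 121 FB-like CCl4 wells, 134 CCl4 wells of unnamed cluster 5 entered neither class and held Serpine2 at 16.7 RPM. That cluster had all 7 FB markers detected, and Epcam among its top 10 genes. In FB-like wells Serpine2 ranged from 225 through 494 to 658 RPM over the uninjured portions. BDL portions held 787, 821, 1239, 426 and 379 RPM and CCl4 portions 339, 568, 302 and 129 RPM. Within plates, 4 of 5 BDL portions and 1 of 4 CCl4 portions were higher than uninjured, again with uninjured portions shared within a plate. The fitted difference from uninjured was 0.78 ± 0.43 for BDL and -0.73 ± 0.51 for CCl4, and the latter was 0.28 without the uninjured portion of plate 5 and -1.54 without that of plate 3. Cluster 3 carried most of the BDL level, at 1402 RPM against 377 RPM uninjured. The mix of wells given above for this cluster applies here as well. In VSMC-like wells Serpine2 was 524 through 714 to 797 RPM uninjured, 314 to 899 RPM after BDL and 471 to 1349 RPM after CCl4. Within plates, 3 of 4 CCl4 portions were higher than uninjured, whereas the droplet VSMC-like cells were lower after CCl4, at 0.690-fold.

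Plau and Plaur were low and uneven. Plau in FB-like wells was 0 through 11.0 to 22.5 RPM over uninjured portions, 0.306 to 26.7 RPM after BDL and 2.73 to 39.0 RPM after CCl4. Plaur in FB-like wells was 0 through 18.9 to 38.9 RPM uninjured, 17.7 to 79.9 RPM after BDL and 1.17 to 21.5 RPM after CCl4. In VSMC-like wells the highest portion of any condition was 11.5 RPM for Plau and 5.39 RPM for Plaur. The 2 HSC-like portions of plate 6 held Plat at 0.0272 and 0.619 RPM, Serpine2 at 18.3 and 33.4 RPM, and Plau and Plaur at 1.18 RPM or less, so Plat was low in uninjured HSC-like cells by both methods.

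**Figure D4:**
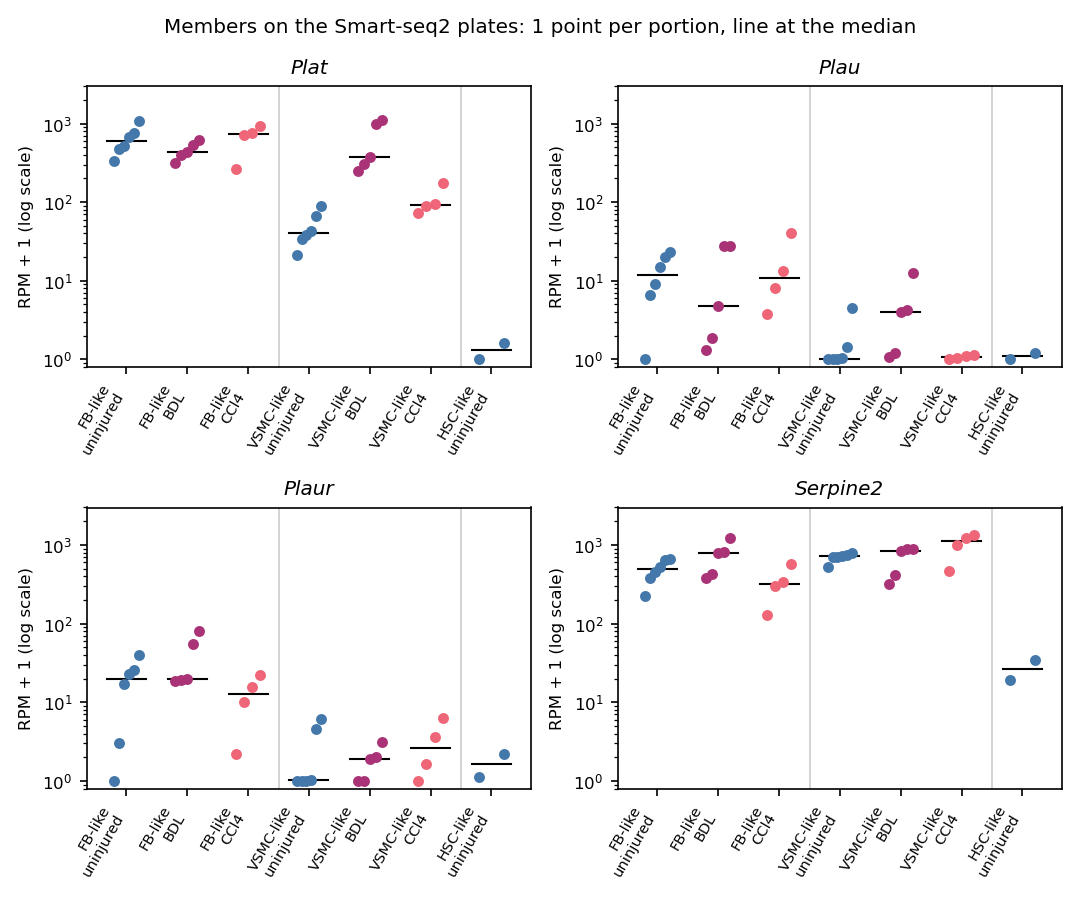
Level of each member (RPM + 1, log scale) in the summed wells of each class, with 1 point per portion and a line at the median. Plat in VSMC-like wells is between 248 and 1111 RPM in the 5 BDL portions and at most 88.8 RPM in the 6 uninjured portions.

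The 2 injuries were compared in the same model, with a term for plate, since BDL and CCl4 wells were on different plates. No plate held both, so each injury enters through its difference from the uninjured wells of its own plates. By edgeR's quasi-likelihood test with Benjamini-Hochberg adjustment, no gene was called between BDL and CCl4 in FB-like wells (0% of 13323, 506 at an unadjusted p under 0.05, 142 by DESeq2) or VSMC-like wells (0% of 13038, 535 and 173). Plat was 1.46 ± 0.80 higher (log2) after BDL than after CCl4 in VSMC-like wells, with an adjusted p = 1 by edgeR and 0.095 before adjustment. In RPM, which takes no account of plate, every BDL portion was above every CCl4 portion. Taken against the uninjured portion of the same plate, the injuries overlapped, at 1.77 to 4.67 (log2 of RPM + 1) for BDL and 1.03 to 2.12 for CCl4. In FB-like wells the Plat difference was -0.35 ± 0.56 (edgeR adjusted p = 1). Serpine2 was 1.50 ± 0.66 higher after BDL in FB-like wells, with an adjusted p = 1 by edgeR and 0.043 before adjustment, and -0.39 ± 0.61 in VSMC-like wells. Neither Plau nor Plaur was called.

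Against uninjured wells, the same model called 0% of 13323 genes in FB-like wells for BDL (892 at an unadjusted p under 0.05, 361 by DESeq2) and for CCl4 (323 and 129). In VSMC-like wells it called 0.00767% of 13038 genes for BDL, a single gene (988 and 380), and 0% for CCl4 (463 and 200). None of the 11 list genes tested was called by edgeR in any of these 6 comparisons. Their median differences from uninjured were 0.52 for BDL and 0.17 for CCl4 in FB-like wells, and -0.10 and 0.44 in VSMC-like wells, where those of all genes were 0.04, -0.01, 0.05 and 0.01. Between BDL and CCl4 the list median was 0.24 (FB-like) and 0.05 (VSMC-like), beside 0.05 over all genes in both.

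FB-like and VSMC-like wells of the same portions were then compared, within each condition. Plat was 3.92 ± 0.41 higher (log2) in FB-like wells of uninjured portions (edgeR adjusted p = 3.32e-06, higher in 6 of 6) and 2.77 ± 0.50 higher in CCl4 portions (edgeR adjusted p = 0.000972, 4 of 4). In BDL portions the difference was -0.05 ± 0.41 (edgeR adjusted p = 0.967), and FB-like wells were higher in 3 of 5. Per portion, the gap in log2(RPM + 1) was 2.41 to 4.61 uninjured, 0.63 to 3.39 after CCl4 and -1.48 to 0.80 after BDL. The change of the gap with injury was not tested. Genes called between the classes were 18.1% of 14593 in uninjured portions, 14.9% after BDL and 13.1% after CCl4.

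For Serpine2 the difference between FB-like and VSMC-like wells was -0.50 ± 0.34 in uninjured portions (edgeR adjusted p = 0.376, lower in FB-like wells in 6 of 6) and 0.20 ± 0.39 in BDL portions (edgeR adjusted p = 0.828). In CCl4 portions it was lower in FB-like wells by -1.57 ± 0.46 (edgeR adjusted p = 0.0307, lower in 3 of 4). That call was lost without any of 3 of the 4 CCl4 portions. The edgeR adjusted p was 0.0862 without the first portion of plate 3, 0.144 without the first of plate 5 and 0.191 without the second of plate 5.

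Plau was called higher in FB-like wells of uninjured (edgeR adjusted p = 0.0139, higher in 5 of 6) and CCl4 portions (edgeR adjusted p = 0.0236, 4 of 4) and not of BDL portions (edgeR adjusted p = 0.705, 3 of 5). The median gap in log2(RPM + 1) was 2.96, 3.25 and 0.28. Leaving out the uninjured portion of plate 4 took the uninjured adjusted p to 0.0563, and leaving out either CCl4 portion of plate 3 or the first of plate 5 took the CCl4 value to 0.0721, 0.08 and 0.0819. Plaur was called in uninjured (edgeR adjusted p = 0.0265, 5 of 6) and BDL portions (edgeR adjusted p = 0.00949, 5 of 5) and not in CCl4 portions (edgeR adjusted p = 0.209, 4 of 4), with median gaps of 1.99, 4.31 and 1.96. Its uninjured call was lost without the uninjured portion of plate 1, 3 or 5, at adjusted p of 0.0766, 0.0979 and 0.0839.

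Of the 12 list genes tested between the classes, 6 were called in uninjured portions, 7 in BDL and 6 in CCl4 portions. The same 5 were higher in FB-like wells in all 3 conditions. They were Anxa2 and S100a10, which form a complex that binds plasminogen and tissue-type activator at the cell surface, Lrp1, the endocytic receptor that clears activator-inhibitor complexes, Mrc2 and Tfpi2. In uninjured portions Lrp1 was 2.06 ± 0.18 higher (edgeR adjusted p = 6.01e-07) and S100a10 3.64 ± 0.30 higher (edgeR adjusted p = 2.78e-07). Serpini1 was lower in FB-like wells in all 3, by -4.96 ± 1.09 in uninjured portions (edgeR adjusted p = 0.00342). The list medians were 0.77, 0.86 and 1.16 in uninjured, BDL and CCl4 portions, and those of all genes -0.02, -0.05 and 0.00.

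**Figure D5:**
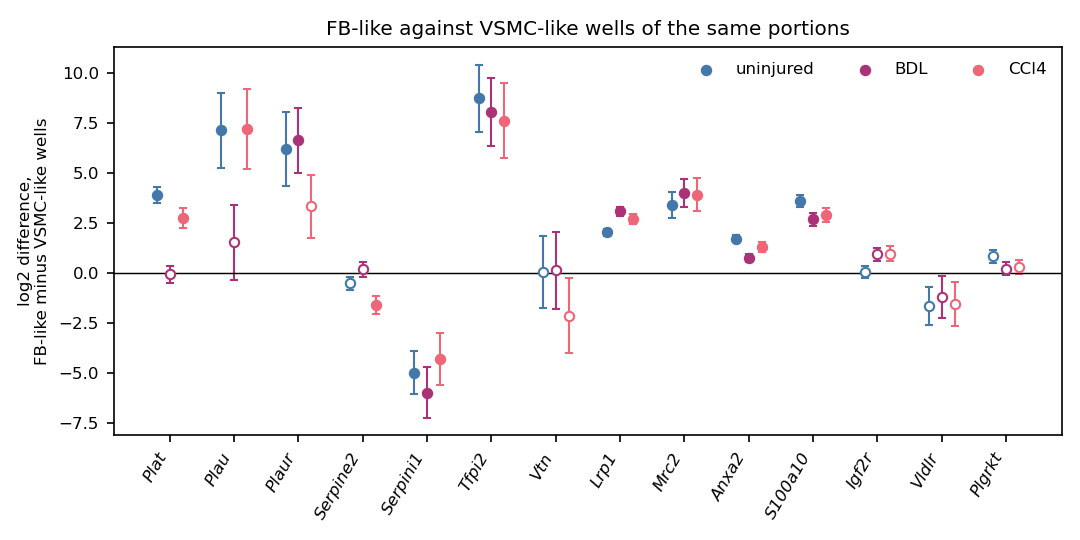
Fitted log2 difference between FB-like and VSMC-like wells of the same portions (± SE) for the members and list genes, by condition. Filled points have an edgeR adjusted p under 0.05; Plat is at 3.92 uninjured, 2.77 after CCl4 and -0.05 after BDL. The wide bars of Plau, Plaur, Tfpi2, Serpini1 and Vtn belong to genes with portions at or near 0 reads, and their fitted size is no bound.

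Patterns of other genes were set beside those of the members by the mean of 2 Pearson correlations of log2(value + 1), over 7 class-by-library groups of the droplet data and 32 class-by-portion sums of the plates, among 7349 genes. The groups share libraries, depth and class, so the values describe likeness and carry no p. The genes most like Plat were Myof at 0.890, Serpina3n, Ildr2, Vim and Lox at 0.862. Those most like Serpine2 were Prrx1 at 0.903, Timp3, Col4a5, Pi15 and Stard10 at 0.868. For Plau they were led by Ces1d at 0.865 and for Plaur by Ahsg at 0.861. No gene was among the 5 of more than 1 member.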

How the data were processed

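Per the study's methods and the labels, the authors aligned droplet reads to mm10 with Cell Ranger 2.1.0 and plate reads with STAR to mm10 with eGFP and spike-in sequences, and deposited gene counts that were not normalised. Counts of UMIs or reads were used as deposited, with rows of the same plate symbol summed. The plate layout gave each well's condition. The members and lists were chosen with earlier results of these data known.

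Cells with at least 300 genes and at most 30% mitochondrial counts were kept (30999), as were wells within 3 median absolute deviations in total, genes and spike-in share (2065), and these were scaled to 10000, reduced to 10 components of 2000 variable genes and clustered (30 neighbours, Leiden resolution 0.8, leidenalg 0.10.2). Clusters were named from fixed markers. Before clustering, a gene found in fewer than 3 cells of a droplet library was set to 0 in that library. A droplet value of 0 can therefore be a gene of that kind. Probable doublets, the cells with most simulated doublets among their neighbours, were kept, and left out in an alternative. CPM were summed over cells. A droplet gene was called at 2-fold or more with at least 20 CPM in the higher library. Folds against counts of 1 to 3 were given with their counting interval.

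Wells of a class were summed per portion (at least 5 wells) and fitted with edgeR 4.0.16 (TMM, filterByExpr, quasi-likelihood; R 4.3.3) in 2 kinds of model. Injuries were compared over portions of plates 1 to 5 with a plate term (5 uninjured, 5 BDL and 4 CCl4 portions), and classes over 6, 5 and 4 portions with the portion as a block. Calls had a Benjamini-Hochberg adjusted p under 0.05. The steps were tested on simulated data. DESeq2 1.42.0, no filter, no plate term or block, other clusterings and leaving out each portion were tried. Named genes were the 4 members, the 16 list genes, marker genes and the 5 genes most like each member. Clusters are also named by their leading genes, chosen after their values were seen. Some genes that entered the counts and medians are not reported here.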

Additional observations from a re-analysis of the deposited data

Results flagged for a closer look

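Each group of 4 to 10 portions was checked for a value far from the others, in 24 groups of portions. Chance gives about 1 in 20 where values are normally distributed. RPM near 0, as for Plau in VSMC-like wells, need not be, so the rate is not known for them. Plau in VSMC-like wells of the uninjured portion of plate 2 was 3.53 RPM, and the next of the 6 was 0.433 RPM. Plau in VSMC-like wells of the first BDL portion of plate 2 was 11.5 RPM, and the next of the 5 was 3.19 RPM. Serpine2 in VSMC-like wells of the uninjured portion of plate 4 was 524 RPM, and the next of the 6 was 696 RPM.

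Plat lay on opposite sides of its uninjured level after BDL in the 2 classes of wells. Every BDL portion was below the uninjured portion of its plate in FB-like wells (median -0.59 in log2 of RPM + 1) and above it in VSMC-like wells (median 2.70). This difference was not tested, and BDL portions of 1 plate were set against the same uninjured portion.

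Wells of unnamed clusters entered no comparison. Cluster 5 of the wells, led by Serpinb2, Mmp7 and Calca, held 134 CCl4 wells and 20 BDL wells and 2 of uninjured mice. In its CCl4 wells Serpinb2 was 464 RPM, where no uninjured portion of a named class exceeded 0.0648 RPM, and Plaur was 52.0 RPM, where the highest such portion was 38.9 RPM. In its BDL wells Plau was 30 RPM against 22.5 RPM at most, and Plaur was 55.2 RPM. FB-like portions of injured mice reached higher values, 39.0 RPM of Plau after CCl4 and 79.9 RPM of Plaur after BDL. After CCl4 the highest FB-like portion had Plaur at 21.5 RPM. Serpinb2 was at most 2.97 RPM in FB-like portions after BDL and 0.156 RPM after CCl4. In the droplet libraries, FB-like and VSMC-like cells of the PF isolation held 0 Serpinb2 UMIs, also after 6 weeks of CCl4. That difference between the methods was not tested. Cluster 10, led by the mesothelial genes Msln and Upk1b, held 19 CCl4 wells with Serpinb2 at 0.145 RPM.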

How the results depend on the processing

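The numbers of genes called between conditions on the plates depended on the tool and on the filter. DESeq2 called 142 and 173 genes between BDL and CCl4 in FB-like and VSMC-like wells, 361 and 380 between BDL and uninjured, and 129 and 200 between CCl4 and uninjured. With no filter on low counts edgeR called 79 and 12, 272 and 136, and 35 and 13. With no plate term it called 3 and 1 between BDL and CCl4, and 18 and 32 between BDL and uninjured. Leaving out 1 portion gave 0 to 1 gene between BDL and CCl4 in VSMC-like wells (1 without the BDL or the uninjured portion of plate 4). It gave 0 to 2 between BDL and uninjured in FB-like wells (2 without the first CCl4 portion of plate 5) and 0 to 7 in VSMC-like wells (7 and 4 without the BDL and the uninjured portion of plate 4, and 0 without the first BDL portion of plate 1 or the uninjured portion of plate 1 or 2). DESeq2 called 1 list gene between BDL and uninjured in each class, and in VSMC-like wells edgeR called 2 with no filter and 1 with no plate term. Between the classes DESeq2 called 4163, 3429 and 3392 genes in uninjured, BDL and CCl4 portions, against 2647, 2175 and 1908 by edgeR. The causes were not tested.

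Plaur between the classes was called in CCl4 portions by DESeq2 (3.53, adjusted p = 0.0372) and lost its uninjured call without the portion block (3.66, adjusted p = 0.0762). The block pairs wells of the same mouse and plate, and without it no other call of a member between classes was lost. Over the fits that left out 1 portion, the fitted class difference was 6.36 to 8.29 for Plau in uninjured and 6.23 to 7.93 in CCl4 portions, 4.69 to 7.95 for Plaur in uninjured portions and -2.16 to -1.05 for Serpine2 in CCl4 portions.

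In the droplet data the Plat fold in HSC-like cells was 23.2 at 72 h and 29.1 at 6 weeks in cells thinned to 2000 UMIs. With the unnamed clusters counted as HSC-like, chosen after seeing the data, the folds were 13.1 and 14.7 for Plat and 5.45 and 4.80 for Serpine2. The limits are those of the design. Each droplet condition is 1 library of 3 pooled mice, and plate portions need not be separate mice. BDL and CCl4 were on different plates. Plau and Plaur were counted 2 to 74 times per library in HSC-like and VSMC-like cells, and the counting intervals of their folds are wide.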

Other observations

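In the CCl4 wells of unnamed cluster 5, Plat was found in 95.5% of 134 wells and the activator inhibitor Serpinb2 in 33.6%. Summed over wells, Serpinb2, or PAI-2, was 404 and 715 RPM in the 2 CCl4 portions of plate 3 and 380 and 661 RPM in those of plate 5. Plat was 717, 673, 886 and 845 RPM in the same portions and Serpine2 37.8, 0.898, 13.7 and 0.343 RPM, below the lowest FB-like or VSMC-like portion, at 129 RPM. Pdgfrb was 292 to 531 RPM, and Epcam was at 0 in 3 of the 4 and at 23.3 RPM in the second of plate 5. In the same order of portions, Krt19 was 69.9, 40.0, 4.06 and 148 RPM and Msln 22.2, 0, 0.300 and 56.6 RPM. The whole cholangiocyte list summed to 2.19 to 22.2 RPM in FB-like portions after CCl4. In the BDL wells of the cluster, Serpinb2 was at 0 in all 3 portions, while Krt19 was 626 to 1498 RPM and Pdgfrb 21.4 to 95.4 RPM. The wells were grouped by their expression, so these values describe the cluster and were not tested.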
